A study of Mus musculus with 3 samples.

Results

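The genes described here make ribosomes. They are 37 genes of ribosome biogenesis and the nucleolus, taken from a list of known factors and matched to array probes through their RefSeq transcripts. All 37 were named on the array and were well above background on all 3 arrays, and they were read among 22908 named genes, 15240 of which were well above background on at least 1 array and were tested. Ribosomes are built mainly in the nucleolus, where RNA polymerase I copies the ribosomal RNA genes and small nucleolar ribonucleoproteins (snoRNPs) guide the methylation and pseudouridylation of the precursor RNA. Large assemblies of processing factors then cut the precursor and fold it with ribosomal proteins into the 40S and 60S subunits. Many of these genes are known targets of the transcription factor Myc, and the nucleolus is also tied to p53, since free ribosomal proteins can bind its inhibitor MDM2 and the ARF product of Cdkn2a binds nucleophosmin.

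The arrays measured total RNA of splenic tumours from male mice whose cells were taken at 10 weeks of age, with no treatment. The genotypes were LSD1 × p53+/−, with 2 tumours that the labels number 2 and 3, and p53+/−, with 1 tumour. They are called LSD1 tumour 2, LSD1 tumour 3 and the p53 tumour here, and all of them are labelled haploinsufficient for p53. Kdm1a encodes LSD1, a histone demethylase. What the LSD1 element is, which promoter drives it and whether the numbers stand for mice or lines is not given in the labels. The design sets tumours that carry this element beside 1 that has lost a p53 allele without it.

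A level is the log2 of the probe's signal over the array's 75th percentile, and a difference is an LSD1 tumour's level minus that of the p53 tumour. Kdm1a had levels of 2.71 and 2.29 in LSD1 tumours 2 and 3, against 2.07 in the p53 tumour, and Trp53, which encodes p53, had levels of -0.42 and -0.13, against 0.18. Across all 15240 genes the median difference was 0.05 (LSD1 tumour 2) and 0.16 (LSD1 tumour 3). Slide 1 and scan 1 held LSD1 tumour 3 with the p53 tumour, and slide 2 and scan 2 held LSD1 tumour 2. LSD1 tumour 2 therefore has no comparison with the p53 tumour within a slide. Differences between the LSD1 tumours cannot be told apart from those of slide and scan. Defining markers of T cells (9 of 9 tested), B cells (9 of 9) and erythroid cells (10 of 10) were well above background on every array. Of 5 exocrine pancreas markers, 2 were above background in LSD1 tumour 2 and 5 in LSD1 tumour 3, against 0 in the p53 tumour. With 1 array against 2, no exact permutation test over samples could go below a one-sided p of 0.333, and how far p53 tumours vary among themselves is unknown.

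Ribosome biogenesis genes were higher in both LSD1 tumours than in the p53 tumour. Of the 37 genes, 36 were higher in both, where 38.9% of all tested genes were (40.6% of those above background on all 3 arrays). In the authors' deposited value table the count was 31, where 23.3% of all genes were. Ubtf alone was lower in both, where 27.8% of all genes were. Their median difference was 1.07 for LSD1 tumour 2 and 0.88 for LSD1 tumour 3, which is 2.10-fold and 1.84-fold. A total of 12 genes was at least 2-fold higher in both, where 3.48% of all genes were (3.49% of those above background on all 3 arrays), and 0 were at least 2-fold lower in both, where 5.38% of all genes were (3.25% of those above background on all 3 arrays). Both differences share the single p53 array and are not independent. The sizes depended on the scaling: the count at 2-fold was 5 with quantile normalization, where 2.90% of all genes were, and 5 in the authors' deposited value table, where 1.44% were and the medians of the 37 genes were 0.86 and 0.52. In limma, fitted over all tested genes, 0 of the 37 genes passed the adjusted threshold of 0.05, as did 0% of all genes (lowest adjusted p = 0.967 in limma). At an unadjusted threshold of 0.05 limma called 0 of the 37 genes and 3.73% of all genes. With 1 residual degree of freedom limma gave standard errors between 0.478 and 0.730 log2 units for these genes. In bulk tissue, more cells that express a gene and more RNA of it per cell cannot be told apart.

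**Figure D1:**
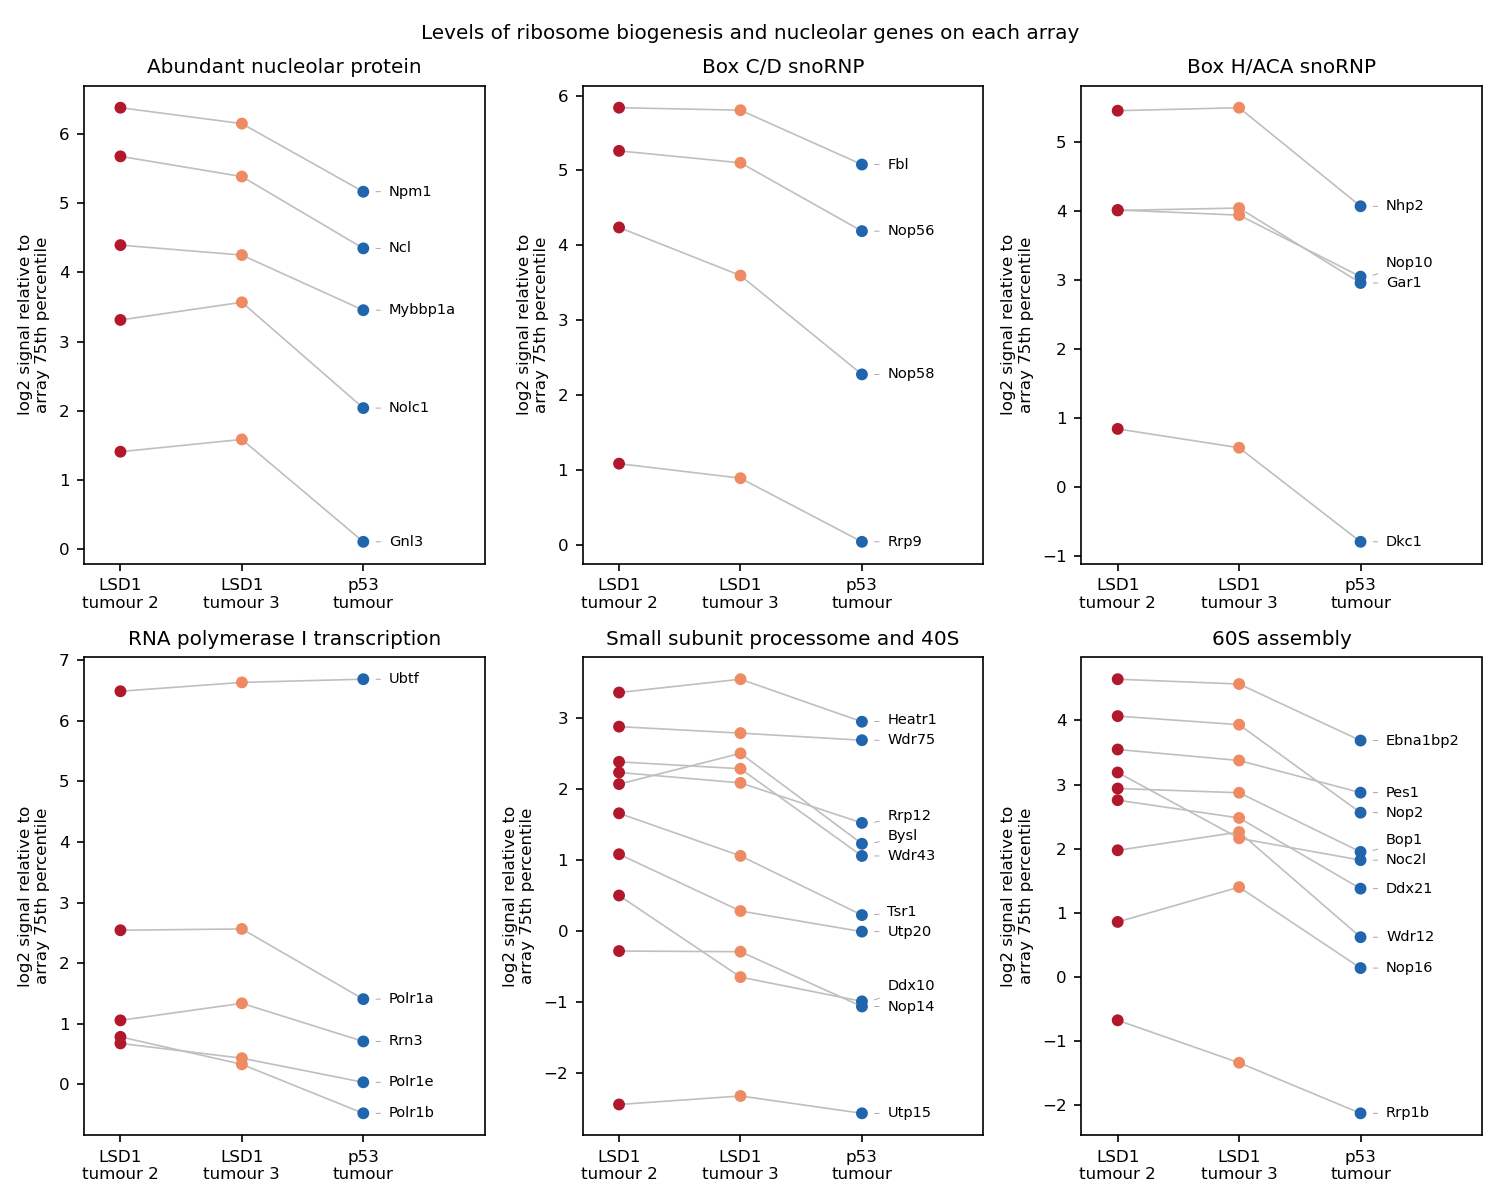
Level of each gene (log2 signal relative to the array's 75th percentile, vertical axis) on the arrays of LSD1 tumour 2, LSD1 tumour 3 and the p53 tumour, in 6 panels by role. Grey lines join the values of a gene, and all lines except that of Ubtf end lower in the p53 tumour than in both LSD1 tumours.

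By their brightest probes, the genes of abundant nucleolar proteins were higher by similar amounts in both tumours, and some other probes gave larger gaps between the tumours. Nucleolin (Ncl), which binds nascent ribosomal RNA, had levels of 5.68 and 5.39 in LSD1 tumours 2 and 3, against 4.35 in the p53 tumour. These are 2.52-fold and 2.06-fold higher, although its other probe gave differences of 1.38 and, short of 2-fold, 0.68. Nucleophosmin (Npm1), a chaperone of histones and ribosomes that binds ARF, had levels of 6.38 and 6.15, against 5.17. Its difference in LSD1 tumour 3 (0.99) lay just short of 2-fold, where that of Ncl (1.04) lay just past it. Both other Npm1 probes passed 2-fold in both tumours, at 1.25 and 1.16 for the first and 2.52 and 1.81 for the second. Mean differences here use only the brightest probe of each gene. The first of these other Npm1 probes was printed in 10 spots on each array. It read 6.31 ± 0.04 and 6.22 ± 0.07, against 5.06 ± 0.08 (SD over spots of 1 array). The gap between genotypes for that probe was thus many times the spot-to-spot spread, which says nothing of the spread between animals. Nolc1, a chaperone of snoRNPs, had levels of 3.31 and 3.57 in LSD1 tumours 2 and 3, against 2.04 in the p53 tumour. Gnl3, encoding the GTPase nucleostemin, had levels of 1.41 and 1.58, against 0.10. Unlike the other genes of this group, Nolc1 and Gnl3 had their larger difference in LSD1 tumour 3. With Wdr12 they were the 3 genes at least 2-fold higher in both tumours under each of the 7 settings of signal, filter and probe compared. These 7 include the main setting. They also include the filter for genes above background on all 3 arrays, which leaves the values of these genes unchanged by construction. Nolc1 and Gnl3 have 1 probe each, so averaging over probes could not change them either. For Nolc1 and Gnl3, only the settings that changed background correction or scaling were a test. Mybbp1a, a nucleolar regulator of transcription, was 1.92-fold and 1.74-fold higher. Its other probes gave differences of 1.29 and 0.69 for the brighter and 1.13 and 0.67 for the dimmer.

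Genes of both classes of snoRNP were higher in both LSD1 tumours, all 8 included. Box C/D particles methylate ribosomal RNA, and their methyltransferase fibrillarin (Fbl) had levels of 5.84 and 5.81 in LSD1 tumours 2 and 3, against 5.08 in the p53 tumour. This difference of 0.76 and 0.73 was the smallest of the 4 box C/D genes in each tumour. The scaffold protein gene Nop58 had levels of 4.24 and 3.60, against 2.28, which is 3.90-fold and 2.50-fold higher. It had the highest mean difference of the 37 genes (1.64, standard error 0.57, limma adjusted p = 0.967), and its other probes, 3 in number, gave between 1.18 and 1.96. Its partner Nop56 was 2.10-fold and 1.88-fold higher, and Rrp9, which binds the U3 snoRNA, stood at differences of 1.04 and 0.85.

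Box H/ACA particles convert uridine to pseudouridine. Their catalytic subunit dyskerin (Dkc1), mutated in human dyskeratosis congenita, had levels of 0.84 and 0.57 in LSD1 tumours 2 and 3, against -0.79 in the p53 tumour. Its differences were 1.63 and 1.36, and its other probe gave differences of 1.27 and 1.06. Nhp2, a core protein of the same particle, had levels of 5.45 and 5.49, against 4.07. Gar1, also a core protein, had levels of 4.0 and 4.04, against 2.95. For Nhp2 and Gar1, LSD1 tumour 2 minus LSD1 tumour 3 was -0.04 and -0.03, far smaller than either distance from the p53 tumour. Nop10, the smallest of the core proteins, was 1.95-fold and 1.85-fold higher, so that 3 of the 4 genes passed 2-fold in both tumours.

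Genes of RNA polymerase I and its factors differed among themselves. Polr1a, the largest subunit of the enzyme, had levels of 2.54 and 2.56 in LSD1 tumours 2 and 3, against 1.41 in the p53 tumour, with differences of 1.14 and 1.16. Polr1b, the other large subunit, was 2.40-fold and 1.75-fold higher, and Polr1e, a subunit of the initiating form, 1.56-fold and 1.32-fold. Rrn3, the factor that brings the polymerase to the promoter, was 1.27-fold and 1.55-fold higher. Ubtf, the protein that keeps ribosomal RNA genes open, had levels of 6.48 and 6.63, against 6.68. Its differences of -0.20 and -0.05 were the lowest of the 37 genes, and its other probe gave 0.07 and 0.29, so that its direction depends on the probe. Neither Ubtf probe came near the size of the differences seen for Polr1a.

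Genes of the small subunit processome, the assembly that cuts the precursor of the 40S subunit, differed in size. All 10 were higher in both tumours, but only Wdr43 reached 2-fold in both. Wdr43, which belongs to the first proteins to join the precursor, had levels of 2.39 and 2.29 in LSD1 tumours 2 and 3, against 1.06 in the p53 tumour. Wdr75, of the same early complex, had levels of 2.88 and 2.79, against 2.69. Its other probes, 2 in number, gave 0.80 and 0.84 in LSD1 tumour 2 and 0.27 and 0.49 in LSD1 tumour 3, so the probe with the highest signal gave the smallest difference. Utp15, also of that complex, had levels of -2.45 and -2.33, against -2.57, and is the dimmest probe of the 37. Ubtf, Wdr75 and Utp15 were the 3 lowest genes by mean difference (-0.13, 0.15 and 0.18). Heatr1, a further early factor, was 1.33-fold and 1.52-fold higher, and the export factor Rrp12 1.64-fold and 1.48-fold.

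Some small subunit genes differed between the arrays of the LSD1 tumours, which also differ in slide and scan. The RNA helicase gene Ddx10 had levels of 0.50 (LSD1 tumour 2) and -0.65 (LSD1 tumour 3), against -0.99 in the p53 tumour. Its difference from the p53 tumour was 1.49 in LSD1 tumour 2 but 0.34 in LSD1 tumour 3, and it is 1 of 2 genes whose levels in the LSD1 tumours lay 2-fold or more apart. Utp20 followed the same order, with differences of 1.09 and 0.29. Tsr1, a factor of late 40S maturation, was 2.70-fold and 1.78-fold higher. Bysl, encoding bystin of the pre-40S particle, went the other way, at 1.79-fold and 2.42-fold, while Nop14 was 1.72-fold and 1.71-fold higher.

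All 9 genes of 60S assembly were higher in both tumours. Pes1, Bop1 and Wdr12 form the PeBoW complex, which is needed to mature the large subunit RNA, and they did not share 1 size of difference. Wdr12 had levels of 1.97 and 2.26 in LSD1 tumours 2 and 3, against 0.62 in the p53 tumour, which is 2.56-fold and 3.12-fold higher. Bop1 was 1.98-fold and 1.90-fold higher, and Pes1 1.59-fold and 1.42-fold by its brightest probe, with 0.68 and 1.32 log2 by its other probe. Nop2, a methyltransferase of the large subunit RNA, had levels of 4.07 and 3.93, against 2.56, or 2.84-fold and 2.59-fold higher. Ddx21, a helicase that works on ribosomal RNA and with RNA polymerase I, had levels of 2.76 and 2.48, against 1.38. Wdr12, Nop2 and Ddx21 were the 3 genes of this group at least 2-fold higher in both tumours.

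Noc2l, a 60S export factor that is also known to bind p53, had levels of 3.19 (LSD1 tumour 2) and 2.16 (LSD1 tumour 3), against 1.82 in the p53 tumour. It is the other gene of the 37 that separated the LSD1 tumours by 2-fold or more (1.03 log2), and its differences from the p53 tumour were 1.37 and 0.34. Rrp1b showed the same order by all 3 of its probes, at 2.73-fold and 1.73-fold higher for the brightest. Nop16 was 1.65-fold and 2.40-fold higher, and Ebna1bp2, a partner of nucleolar assembly factors, 1.94-fold and 1.84-fold.

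**Figure D2:**
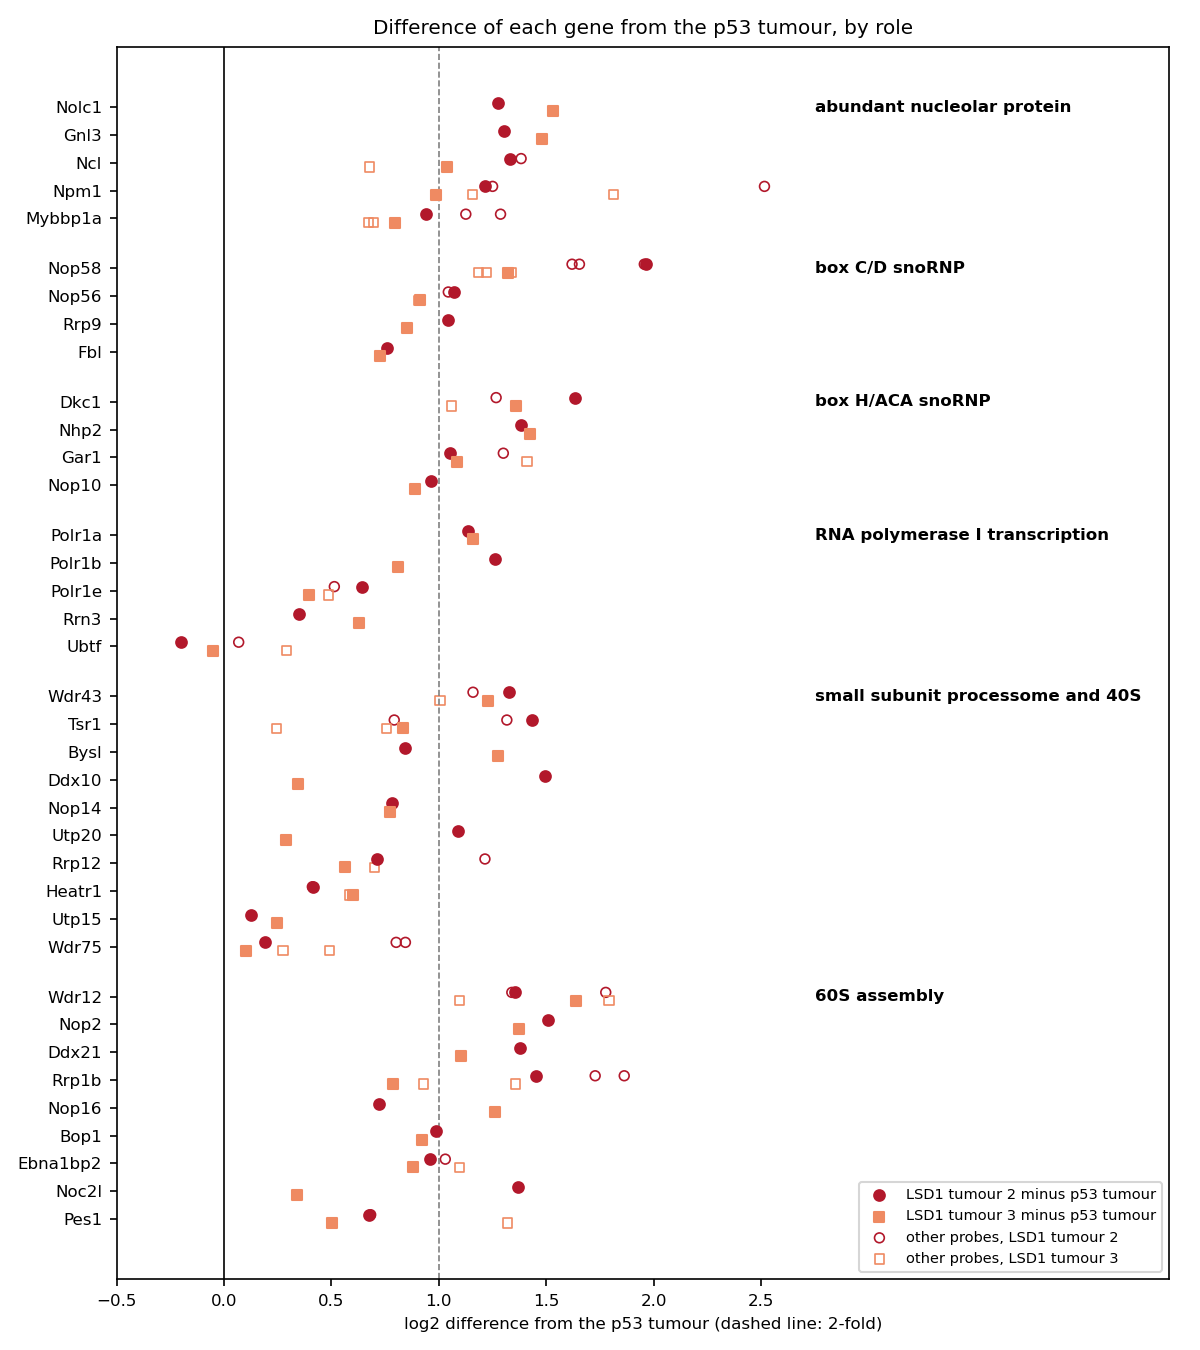
Log2 difference of each gene from the p53 tumour (horizontal axis) in LSD1 tumour 2 (circles) and LSD1 tumour 3 (squares), grouped by role. Filled symbols are the brightest probe and open symbols the other probes above background on all 3 arrays, and all 26 of these other probes lie right of 0 in both tumours.

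Other probes of these genes gave another reading of the same RNA samples. Of the 37 genes, 18 had more than 1 probe, and 26 of their 27 other probes were above background on all 3 arrays. All 26 were higher in both LSD1 tumours, 12 of them by at least 2-fold, with medians of 1.26 and 0.97. The remaining probe, for Heatr1, passed background on the p53 array alone and gives no difference. Probes of 1 gene share the RNA and the array, so they test the probe and not the animal.

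The LSD1 tumours lay close to each other in most of these genes. They were within 1.5-fold for 31 of the 37 genes (83.8%), and for 53.7% of all tested genes and 59.8% of those above background on all 3 arrays. The same share was 87.4% among the other ribosome biogenesis genes listed further on and 97.4% among cytosolic ribosomal protein genes. The SD of LSD1 tumour 2 minus LSD1 tumour 3 was 0.37 over the 37 genes, 1.22 over all tested genes and 0.89 over those above background on all 3 arrays. This contrast does not use the p53 array, and it cannot be told apart from slide and scan. Of the 37 genes, 2 were at least 2-fold higher in LSD1 tumour 2, where 11.1% of all genes were, and 0 were at least 2-fold higher in LSD1 tumour 3, where 14% of all genes were. At 2-fold against the p53 tumour alone, 21 genes were higher in LSD1 tumour 2 (background 11.7%) and 14 in LSD1 tumour 3 (background 15.2%). LSD1 tumour 3 is the one that shared a slide with the p53 tumour, and 36 of 37 genes were higher in it within that slide. Most of the array was also higher in that comparison, where the median of all genes was 0.16. Of all tested genes, 60.6% lay above the difference of Ubtf (-0.05), the lowest of the 37.

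**Figure D3:**
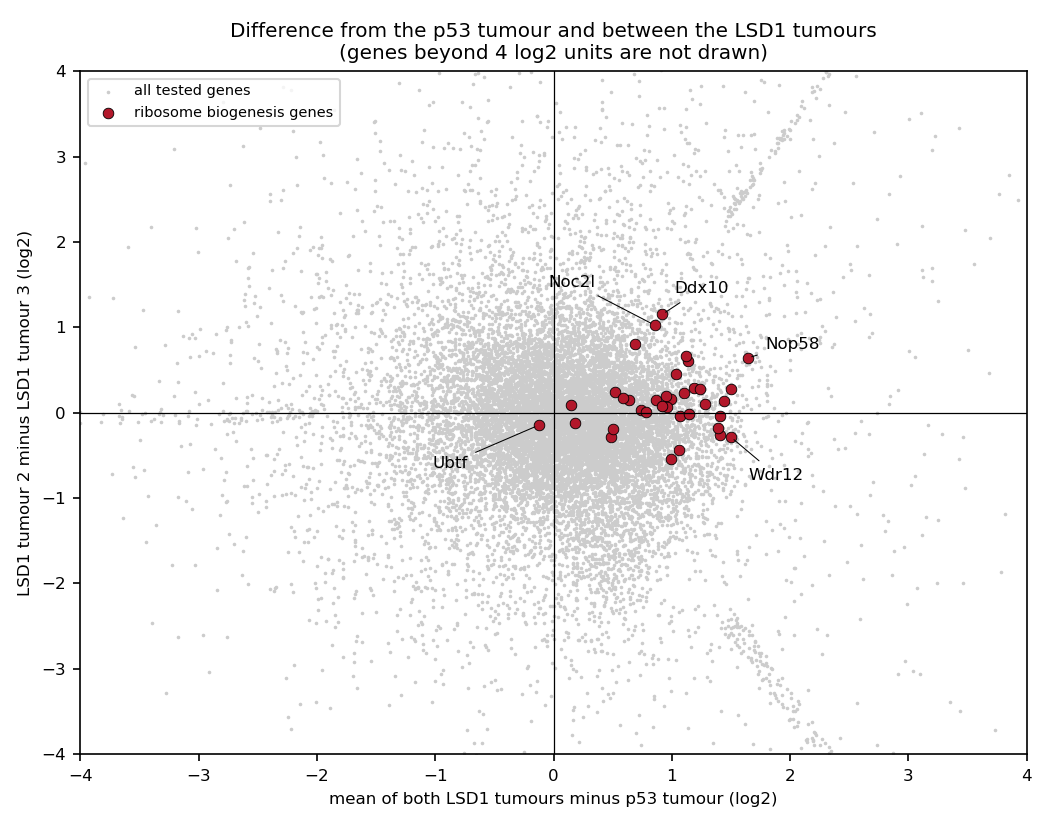
Each point is a gene, with the mean of both LSD1 tumours minus the p53 tumour on the horizontal axis and LSD1 tumour 2 minus LSD1 tumour 3 on the vertical axis, both in log2 units. Grey points are all tested genes (239 lie beyond 4 units and are not drawn), and red points are the 37 ribosome biogenesis genes, which lie right of 0 except Ubtf and close to the horizontal line except for a few such as Ddx10 and Noc2l.

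Promoters of the genes were read for short motifs because most of these genes differed in 1 direction. The table of RefSeq promoters (assembly GRCm38.p6, 250 bases before to 50 after each start) held 42 promoters of 33 of the 37 genes. The E-box CACGTG, the sequence that Myc and Max are known to bind, lay in 7 of the 42 promoters (16.7%), in 9.26% of the promoters of tested genes and in 7.15% of all 32851. GGGCGG or its complement, the core of the Sp1 motif, lay in 73.8% of member promoters, against 56.0% of those of tested genes. CCGGAA or its complement, the core of the ETS motif, lay in 38.1%, against 23.6%. Those shares are of promoters. Counted by gene, CACGTG lay in 21.2% of the 33 genes and in 10.9% of tested genes with a promoter. By gene again, 2 of the 12 at least 2-fold higher in both tumours held CACGTG (16.7%), against 5 of the other 21 with a promoter (23.8%). The 8 occurrences are shown with 12 bases on either side as far as the table reaches, 5′ to 3′ on the gene's strand, with the E-box in capitals. Of these 8, 5 begin after the annotated start. Within these bases Rrn3 (differences 0.35 and 0.63) holds 2 and Nop58, with the highest mean difference, holds none. Sites outside them were not read, and a link between E-boxes and the size of a difference was not tested.
Mybbp1a (chr11:72441355-72441376, + strand, first base of the motif at 41): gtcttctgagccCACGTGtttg
Rrn3 (chr16:13780472-13780501, + strand, first base of the motif at -215): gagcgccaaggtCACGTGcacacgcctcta
Rrn3 (chr16:13780639-13780668, + strand, first base of the motif at -48): ttacgctctgctCACGTGggccgcgtcccg
Wdr43 (chr17:71616220-71616249, + strand, first base of the motif at 18): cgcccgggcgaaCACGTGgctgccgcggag
Utp20 (chr10:88826765-88826789, - strand, first base of the motif at 38): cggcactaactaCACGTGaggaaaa
Tsr1 (chr11:74898092-74898121, + strand, first base of the motif at 25): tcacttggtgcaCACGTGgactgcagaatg
Pes1 (chr11:3963965-3963994, + strand, first base of the motif at 3): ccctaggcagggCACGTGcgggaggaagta
Nop2 (chr6:125131811-125131840, + strand, first base of the motif at -60): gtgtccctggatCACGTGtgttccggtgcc

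Whole promoters are shown for Nop2 and Nop58, both at least 2-fold higher in both LSD1 tumours, of which only Nop2 holds an E-box. Capitals mark CACGTG as well as GGGCGG and CCGGAA on either strand. Nop2 has 2 occurrences of CCGGAA or its complement and Nop58 has 2, and each has 1 of GGGCGG or its complement. A match describes these letters and does not show binding.
Nop2 (chr6:125131633-125131932, + strand): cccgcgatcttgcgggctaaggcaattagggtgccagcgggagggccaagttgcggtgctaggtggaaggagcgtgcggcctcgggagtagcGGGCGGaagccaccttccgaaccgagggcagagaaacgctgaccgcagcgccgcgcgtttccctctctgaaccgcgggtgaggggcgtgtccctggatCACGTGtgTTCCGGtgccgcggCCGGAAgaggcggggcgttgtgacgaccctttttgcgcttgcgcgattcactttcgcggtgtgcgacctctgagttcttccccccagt
Nop58 (chr1:59684756-59685055, + strand): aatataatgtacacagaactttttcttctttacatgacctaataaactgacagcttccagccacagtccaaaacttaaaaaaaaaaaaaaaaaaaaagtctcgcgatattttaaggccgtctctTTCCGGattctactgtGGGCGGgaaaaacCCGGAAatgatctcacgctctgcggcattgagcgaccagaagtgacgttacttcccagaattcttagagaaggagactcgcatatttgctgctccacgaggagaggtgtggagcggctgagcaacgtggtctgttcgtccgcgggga

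Myc itself had levels of 2.18 and 1.25 in LSD1 tumours 2 and 3, against 0.14 in the p53 tumour, and its partner Max 3.07 and 3.82, against 3.44. Its relative Mycn was lower in both, at differences of -1.70 and -1.01. Mycl was not well above background in either LSD1 tumour and was at least 2.79-fold lower there (limma adjusted p = 0.967), a bound set by the lowest signal above background on each LSD1 array. Mnt, a repressor that competes for Max, stood at -0.80 and -0.81. Of 17 Myc targets outside ribosome biogenesis, all 17 were higher in both tumours (medians 1.07 and 1.24), where 38.9% of all tested genes were. Of the 17, 6 were at least 2-fold higher in both, where 3.48% of all genes were. Srm, the spermidine synthase gene, stood at 1.42 and 1.61, the nucleoside diphosphate kinase gene Nme1 at 1.5 and 1.48, and the folate carrier gene Slc19a1 at 1.98 and 1.27. Odc1, of polyamine synthesis, stood at 0.08 and 1.13. Limma passed 0 of the 17 after adjustment, and 2 at an unadjusted p under 0.05. The differences of Myc from the p53 tumour were 2.03 and 1.11, from 1 array of each LSD1 tumour. Whether Myc has a part in the levels of the 37 genes was not tested.

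A further 113 genes of ribosome biogenesis, in 5 lists, was set beside the 37. Of 111 tested, 93 were higher in both LSD1 tumours and 6 were lower, with medians of 0.70 and 0.68. Of all tested genes, 38.9% were higher in both and 27.8% lower. At least 2-fold higher in both were 13 of the 111, where 3.48% of all genes were. Limma passed 0 of the 111 after adjustment and 0 at an unadjusted p under 0.05. In the small subunit list 33 of 36 were higher in both, led by Noc4l (1.18 and 1.20), Pno1 (1.19 and 1.08) and Rcl1 (1.05 and 1.11), and lowest was Utp25 (0.15 and -0.88). In the 60S list 34 of 39 were higher in both. Rsl24d1 (1.62 and 1.22), Brix1 (1.45 and 1.35) and Rrp15 (1.54 and 1.08) led it, and Nop53, a regulator of late 60S processing, was lowest (-0.60 and -0.37).

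Of 11 tested genes for snoRNP assembly, 10 were higher in both tumours, among them Snu13 (1.20 and 1.62), a protein shared by U3 and the spliceosome, Shq1 (1.28 and 1.41), a chaperone of dyskerin, and Znhit3 (1.13 and 1.42). Pih1d1 was lowest (-0.66 and 0.67). The RNA exosome, which trims the ends of ribosomal RNA, had 12 of 14 higher in both, led by its nuclease Dis3 (1.43 and 1.44), with Exosc7 (1.14 and 0.96) and Exosc8 (0.83 and 1.23) next and Exosc2 lowest (-0.32 and 0.11). Of 11 other genes for RNA polymerase I and its factors, 4 were higher in both tumours, 3 were lower and 4 were split, with medians of 0.51 and -0.07. Taf1d (1.67 and 0.87), Polr1c (1.06 and 0.95) and Polr1d (1.11 and 0.86) stood above, and Tcof1, whose product treacle works with UBF, stood at -0.12 and -0.53.

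Genes for the ribosome's own proteins lay near the average of the array. Of 78 tested genes for cytosolic ribosomal proteins, 42 were higher in both LSD1 tumours, 6 were lower and 30 were split, and 1 was at least 2-fold higher. Of all tested genes, 38.9% were higher in both, 27.8% were lower and 3.48% were at least 2-fold higher. Their medians of 0.06 and 0.17 lay near those of all genes (0.05 and 0.16). This list was drawn up by gene symbol after the values of the 37 genes were known. Among the ribosomal proteins that bind MDM2, Rpl5 stood at 0.65 and 0.30, Rpl11 at 0.12 and 0.16 and Rpl23 at -0.03 and 0.13, and Mdm2 itself at 0.11 and 0.02. Cdkn2a, whose products include ARF, had levels of 4.65 and 4.55, against -3.02 in the p53 tumour. Whether its probe reads the ARF transcript was not examined.

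**Figure D4:**
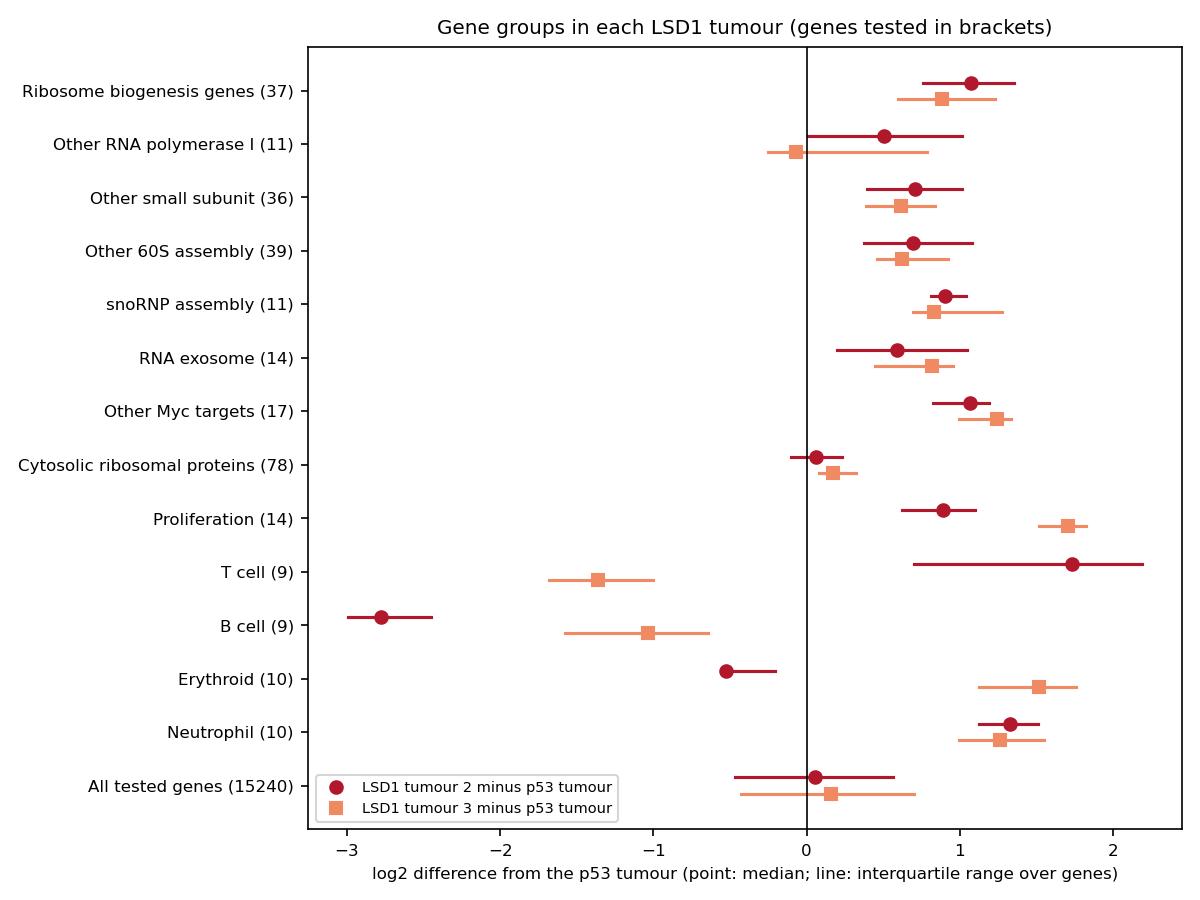
Median log2 difference from the p53 tumour (points) and interquartile range over genes (lines) for 14 gene groups, in LSD1 tumour 2 (circles) and LSD1 tumour 3 (squares). The ribosome biogenesis genes lie near 1 in both tumours, the cytosolic ribosomal proteins near all tested genes, and T cell and erythroid markers on opposite sides of 0 in the 2 tumours.

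Markers of dividing cells were also higher. Of 14 proliferation markers, 13 were higher in both LSD1 tumours, with medians of 0.89 and 1.70 and summed signals of 224 and 440, against 147 in the p53 tumour. Their median was larger in LSD1 tumour 3, with Mki67 at 0.29 and 1.52. Of all tested genes, 38.9% were higher in both LSD1 tumours and 27.8% were lower in both. Neutrophil and precursor markers were also higher in both, 9 of 10, with medians of 1.32 and 1.26 and summed signals of 300 and 278, against 148. The remaining marker of that list, Cxcr2, was lower in both (-1.19 and -2.57). B cell markers were lower in both, 9 of 9, with medians of -2.78 and -1.03 and summed signals of 40.8 and 152, against 292. T cell markers (medians 1.73 and -1.36, summed signals 213 and 29.7, against 64.9) and erythroid markers (medians -0.52 and 1.52, summed signals 603 and 1283, against 875) were mostly on opposite sides of the p53 tumour in the LSD1 tumours, 8 of 9 and 9 of 10. The exceptions, named after their values were seen, were Cd8a, lower in both (-3.47 and -1.94), and Tfrc, also on the list of Myc targets, higher in both (0.86 and 1.65). No defining marker of these 5 cell lists was below background on any array. Of 8 macrophage markers (medians -0.13 and -0.24), 1 was higher in both tumours, 3 were lower and 4 split. They ranged from -5.06 to 0.67 in LSD1 tumour 3, where 1 was not above background. Of 6 haematopoietic progenitor markers (-0.69 and -0.61), 1 was higher in both, 3 were lower and 2 split. Of 6 stromal and endothelial markers (-0.36 and -0.61), 5 were lower in both and 1 split. The part of these cell lists in the result was not tested.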

How the data were processed

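Each tumour was hybridised, with Cy3, to 1 Agilent 1-colour array. The deposited files come from Agilent Feature Extraction 11.5.1.1, named in the submitters' processing notes. Per the file headers, the authors' processed signal is an intensity that was background-subtracted and detrended within the array, with no scaling between arrays. The authors' deposited value table holds these intensities times 1 factor per array (0.779, 0.902 and 1.06 for LSD1 tumour 2, LSD1 tumour 3 and the p53 tumour), whose basis is not given in the sources used here.

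From there each signal was put on a log2 scale after division by the 75th percentile of its own array, which was 712 for LSD1 tumour 2, 554 for LSD1 tumour 3 and 608 for the p53 tumour. Spots marked as outliers were dropped, and the rest averaged by probe. Probes were named through RefSeq accessions in a table of assembly GRCm38.p6, used for names and promoter sequences (the array's own build is mm9), and a gene was read by its brightest probe. limma 3.58.1 in R 4.3.3, with Benjamini-Hochberg adjustment, was fitted over 15240 genes, with 3.27 degrees of freedom including the prior, and was tested on simulated data. It treats the lone p53 tumour as varying like the LSD1 tumours, and its p-values measure only the spread between these samples. Of its degrees of freedom, 2.27 come from a prior on the spread shared by all tested genes. The p-values thus rest largely on a spread pooled over genes and not on that of each gene alone. Polr1a, with LSD1 tumours 0.02 apart, still had a standard error of 0.478. Counts by size required the brighter side to be above background. Between 51.5% and 55.6% of non-control spots were above background per array, and 0 were saturated. The number of arrays limits the precision.

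The genes, the lists and the tests were chosen with earlier results of these data known. Genes given array by array were those at least 2-fold higher in both LSD1 tumours or 2-fold apart between them, the 3 lowest by mean difference, and Ncl, Npm1, Fbl, Dkc1, Polr1a and Ubtf. From each pathway list the 3 highest genes and the lowest are named. Of the list genes, Utp18, Nopchap1 and Trac were not among those tested. Alternatives changed the background correction, the scaling, the filter, the probe, the slide and the samples.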

Additional observations from a re-analysis of the deposited data

How the results depend on the processing

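Most of the 37 genes kept their direction under the alternatives tried, and the number past 2-fold did not hold. The count of genes higher in both LSD1 tumours stayed between 31 and 36 under every setting, where the share of all genes lay between 23.3% (authors' table) and 51.7% (no filter) over the settings of signal, filter and probe, and limma called 0 under every setting that allows a test. The count at least 2-fold higher in both, 12, became 5 with quantile normalization, 6 with the percentile over probes above background on all arrays and 5 in the authors' deposited value table. Median differences in LSD1 tumours 2 and 3 were 0.92 and 0.62 with quantile normalization and 0.86 and 0.52 in the authors' table. In LSD1 tumour 3 the median was 0.55 with the percentile over detected probes and 0.72 less the median of all genes. The authors' table differs from the main scale by 1 factor per array, so centring it gives the same values by construction. The count lower in both, 1, was 3 in the authors' table (Ubtf, Wdr75 and Utp15) and 0 with probes averaged. For the other biogenesis genes, the 13 past 2-fold became 7, 6 and 2 under the same 3 scalings, and 8 less the median of all genes. A 1.5-fold threshold gave 26 and 52, where 11% of all genes passed. This threshold and the centring of the authors' table were chosen after seeing the data. With 1 LSD1 tumour left out, members past 2-fold numbered between 14 (LSD1 tumour 3 alone, also the value with slide as a block) and 21 (LSD1 tumour 2 alone), and other genes between 20 and 31. These counts rise because 1 tumour is asked for in place of both. Scaling moved all genes: their medians of 0.05 and 0.16 became -0.16 and -0.20 in the authors' table and -0.07 and -0.17 with the percentile over detected probes. Of all genes past 2-fold in both, 531 were higher and 820 lower (39.3% higher), against 219 and 1266 (14.7%) in the authors' table, 274 and 1151 (19.2%) with that percentile and 447 and 416 (51.8%) where all arrays had to be above background. The cause was not tested. No paired analysis was possible because the groups share no replicate number. The lone p53 array could not be left out.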

Other observations

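Some gene families outside the lists above were counted by their symbols after the values of the 37 genes had been seen, and they get no test. The share of all tested genes that were higher in both LSD1 tumours was 38.9%. Mitochondrial ribosomal protein genes, which serve the ribosome of the mitochondrion, were higher in both LSD1 tumours in 74 of 78 cases, with medians of 0.61 (LSD1 tumour 2) and 0.96 (LSD1 tumour 3). Mrps22 stood at 1.82 and 1.37 and Mrpl18 at 1.45 and 1.26. This differs from the cytosolic ribosomal protein genes, of which 42 of 78 were higher in both. Genes for cytosolic aminoacyl-tRNA synthetases, which charge tRNAs, were higher in both in 17 of 19 cases (medians 0.58 and 1.08), with Gars at 1.08 and 1.29. Subunit genes of the chaperonin CCT were higher in both in 8 of 9 cases (0.82 and 1.09).

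Among the other nuclear polymerases, 11 of 12 subunit genes of RNA polymerase II were higher in both LSD1 tumours (medians 0.52 and 0.80). For RNA polymerase III, 7 of 10 were (0.32 and 0.24), where 38.9% of all tested genes were. Polr2f, a subunit shared by all of these enzymes, stood at 1.19 and 1.41, and Polr2a at -0.51 and 0.02. Host genes of snoRNAs were higher in both in 10 of 14 cases (0.80 and 0.63), with Snhg4 at 1.30 and 1.48 and Snhg18 at -1.39 and -0.67. Within the cytosolic ribosomal protein list, Rps27l, known as a p53-induced relative of Rps27, was the 1 gene at least 2-fold higher in both (1.20 and 1.28), beside Rps27 at -0.47 and -0.28. These genes were singled out after their values were seen.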
